A study of Mus musculus with 6 samples.

Results

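The genes of the GTPase of immunity-associated protein (GIMAP) family that are expressed in mouse thymic iNKT1 cells were followed here. They are the 8 genes Gimap1, Gimap3, Gimap4, Gimap5, Gimap6, Gimap7, Gimap8 and Gimap9, taken by name from the 17985 genes of the expression table. The set was chosen by the measured difference of Gimap7 between the 2 groups, together with the names of its relatives next to it on chromosome 6. The question was whether the whole cluster moves with Gimap7. The difference of Gimap7 is therefore given as a description, without a test.

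RNA was sequenced from untreated iNKT1 cells of the thymus of mice on a C57BL/6 background. iNKT1 cells are the T-bet-expressing, interferon-producing subset of invariant natural killer T cells. The 3 control (Ctrl) libraries came from Tbx21CreTg;Rosa26-LSL-YFP+/+ mice, which carry a Cre recombinase driven by Tbx21, the gene of T-bet, and a YFP reporter that Cre switches on. The 3 knockout (cKO) libraries came from Tbx21CreTg;Rosa26-LSL-YFP+/+;Tgfbr2F/F mice, which also carry floxed alleles of Tgfbr2, the type II receptor of TGF-beta. Both groups thus carry the Cre and the reporter, and the floxed gene is lost only in cells that have expressed Tbx21 or descend from such cells. The series calls the replicates independent, but the ages, the sex and whether animals were pooled are not given in the sources used here, so p-values measure the spread between these libraries.

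GIMAP proteins are small GTPases with an AIG1-type GTP-binding domain, made mainly in lymphocytes and encoded side by side in one gene cluster. They sit on intracellular membranes or in the cytosol and are best known for roles in lymphocyte survival and homeostasis. Loss of Gimap5 in rodents leads to a lack of peripheral T cells, and Gimap1 is needed for mature T and B cells to persist. Gimap7 is a member without a membrane anchor that hydrolyses GTP as a dimer.

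The libraries held 28832779 to 68092478 reads, so that 1 read was worth 0.0147 to 0.0347 CPM, the unit in which reads are divided by the total of their library, and each of the 8 genes had between 1111 and 143756 reads in every library. Tgfbr2 was at 461, 460.7 and 424.9 CPM in Ctrl and at 289.8, 257.6 and 274.3 CPM in cKO. Its log2 fold change was -0.71 (SE 0.0831, limma adjusted p = 0.0207, lower in 3 of 3 pairs), and transcript was present in every cKO library. It passed in 11 of 12 alternative fits other than those that leave out a library, among them DESeq2 (adjusted p = 9.79e-14). The exception was the quasi-likelihood test of edgeR without a replicate block (adjusted p = 0.0620). The authors' deposited table gives -0.64 with an adjusted p of 0.373. Of the 6 fits that each leave out a library, 1 passed, that without cKO replicate 3 (limma adjusted p up to 0.156 in the others); with the replicate number as a block it was 0.00160. The 2 libraries numbered replicate 3 stood apart from the other 4: they listed 4406 and 4590 genes at 0, against 0 to 5 in the others. Markers of iNKT1 cells were present, with Tbx21 at 779 ± 86.1 CPM in Ctrl and 947 ± 131 in cKO and Zbtb16 (PLZF) at 49.8 ± 9.19 and 49.9 ± 9.74 (SD, n = 3). The marker Klrb1c varied more, at 566, 180 and 703 CPM in Ctrl and at 640, 870 and 1021 CPM in cKO. Its low value in Ctrl replicate 2 was not examined further. Of 9 such markers 6 had a positive log2 fold change, against 6426 of the 15691 genes tested. By limma's test, which 0.663% of genes passed, 1 of the 9 did. It was the chemokine gene Xcl1, which was lower in cKO, at 91.5 ± 6.51 against 181.1 ± 26.6 CPM (adjusted p = 0.0281). With the replicate number as a block Ccl5 (167 ± 25.5 to 372 ± 75.9 CPM, limma adjusted p = 0.00078) and Il2rb (2925 ± 583 to 3705 ± 721 CPM, adjusted p = 0.0166) also passed, both higher in cKO. Over all genes tested 2.87% passed with the block.

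The 8 genes lie within 119 kb of chromosome 6 (mm10, from 48647234 to 48766519), 6 on the plus strand and 2 on the minus strand. In the order of their starts they are Gimap8 (48647234), Gimap9 (48676129), Gimap4 (48684549), Gimap6 (48701582, minus strand), Gimap7 (48718621), Gimap1 (48739054), Gimap5 (48746197) and Gimap3 (48765089, minus strand). Gimap7 lies in the middle, with its span from 48718621 to 48724636 between those of Gimap6 and Gimap1. In coding sequence the closest pair was Gimap3 and Gimap5, with 90.3% identity over aligned bases. The next was Gimap7 and Gimap9 with 66.7%, and the lowest of the 28 pairs was Gimap1 and Gimap9 with 55.9%.

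The 250 bases before the RefSeq start (GRCm38.p6, gene strand, 5′ to 3′) are shown for Gimap7, which differed most between the groups, for Gimap9, its closest relative in coding sequence, and for Gimap1, which differed least. They lie at chr6:48718371-48718620, chr6:48675885-48676134 and chr6:48738797-48739046, all on the plus strand. Capitals mark matches to the RUNX motif TGTGGT on either strand (ACCACA on the strand shown).
Gimap7: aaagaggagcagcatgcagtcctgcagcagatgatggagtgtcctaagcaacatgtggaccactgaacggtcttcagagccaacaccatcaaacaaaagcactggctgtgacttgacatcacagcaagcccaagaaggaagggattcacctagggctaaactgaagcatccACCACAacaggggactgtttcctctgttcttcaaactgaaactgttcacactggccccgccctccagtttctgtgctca
Gimap9: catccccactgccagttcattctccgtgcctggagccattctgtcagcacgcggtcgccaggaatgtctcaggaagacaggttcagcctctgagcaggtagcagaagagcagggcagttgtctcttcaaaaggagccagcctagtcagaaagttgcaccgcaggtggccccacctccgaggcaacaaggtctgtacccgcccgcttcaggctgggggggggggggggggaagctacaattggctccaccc
Gimap1: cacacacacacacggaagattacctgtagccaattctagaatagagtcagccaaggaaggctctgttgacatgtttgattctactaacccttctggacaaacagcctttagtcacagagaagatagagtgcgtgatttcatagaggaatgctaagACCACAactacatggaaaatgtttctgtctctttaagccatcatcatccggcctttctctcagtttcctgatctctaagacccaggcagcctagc
The RUNX motif stood 79 bases before the start of Gimap7, 95 before that of Gimap1 and 145 before that of Gimap4, and 14.0% of all 32851 promoter windows of this length held it. It was thus present before both the gene with the largest and the gene with the smallest difference. The SMAD-type motif CAGACA (17.1% of windows, both strands) was found before Gimap3 and in both overlapping windows of Gimap8, and not before Gimap7. The T-box motif TTCACACC (0.709% of windows) was found in the 2 overlapping windows of Gimap8, and the FOXO motif TGTTTAC (3.17%) before Gimap3. The SMAD palindrome GTCTAGAC (0.167%), the ETS motif CCGGAAGT (2.88%) and the KLF motif CCACACCC (3.20%) were in none of the 9 windows of the 8 genes. A match is a run of letters and does not show that a factor binds there.

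Gimap7 was at 33.0, 36.5 and 50.6 CPM in the 3 Ctrl libraries and at 143, 192 and 223 CPM in the 3 cKO libraries. Every cKO library lay far above every Ctrl library. The means were 40.0 ± 9.28 and 186 ± 40.1 CPM (SD, n = 3), a ratio of 4.65 and a log2 fold change of 2.19 (SE 0.213). Log2 values here and below are of CPM plus a pseudocount of 1. The same-numbered pairs differed by 2.09, 2.36 and 2.12, and with replicates 1 and 2 alone the log2 fold change was 2.22. The authors' deposited table gives 2.29 for the log2 fold change of Gimap7. Of the other 7 genes none has an adjusted p under 0.05 in the authors' deposited table, where 0.801% of genes do, and the lowest is 0.0752 for Gimap3. In bulk RNA, more cells that express a gene and more RNA per cell cannot be told apart.

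**Figure D1:**
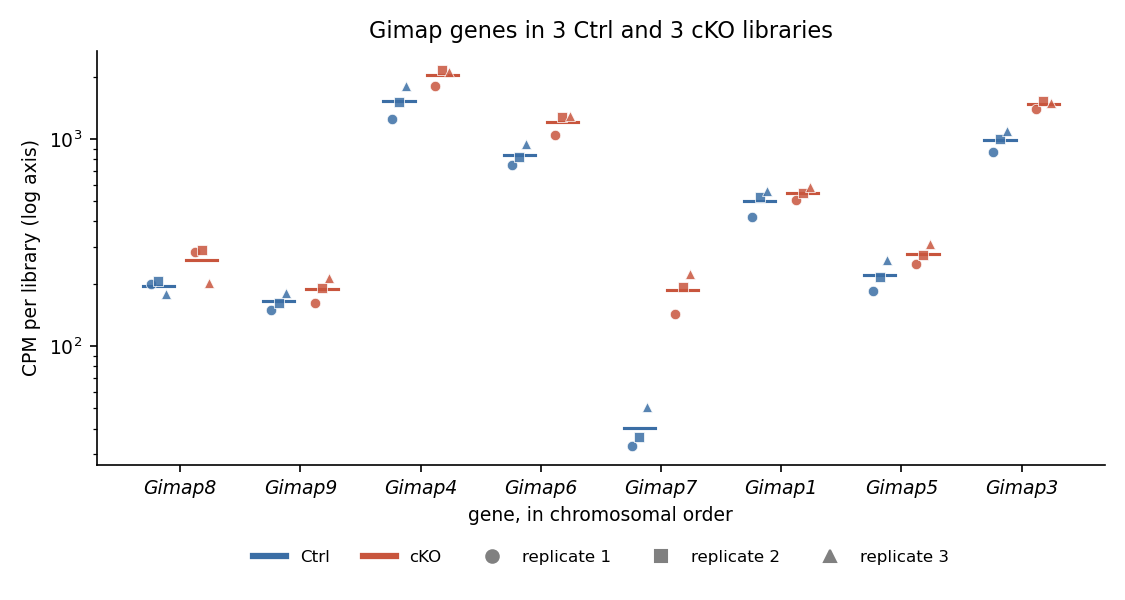
Level of each Gimap gene in every library, in CPM on a log axis, with Ctrl in blue, cKO in red, a symbol shape for each replicate number, a line at each group mean and the genes in chromosomal order. Gimap7 runs from 33.0 to 50.6 CPM in Ctrl and from 143 to 223 CPM in cKO, while the groups of the other 7 genes lie close together or overlap.

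The other 7 genes had higher means in cKO than in Ctrl, by 1.09 to 1.48 times, and none of the 7 passed limma's test at an adjusted p of 0.05 without the replicate block. Over the 15691 genes tested, 0.663% passed, and 0.204% passed with a higher level in cKO. At an unadjusted p under 0.05, 4 of the 7 were higher in cKO (Gimap3, Gimap4, Gimap6 and Gimap8), against 2.33% of genes tested (6.02% in either direction). Same-numbered libraries of the 2 groups deviated together, but among replicates 1 and 2 so did libraries of unlike number. A pairing by replicate number is therefore an assumption of the fits with a block. With the replicate number as a block 3 of the 7 passed: Gimap3, Gimap6 and Gimap4. With the block 2.87% of genes passed, and 1.24% passed with a higher level in cKO. edgeR's quasi-likelihood test called 0 of the 7 without the block and 5 with it, Gimap5 and Gimap8 being added, against 0.261% and 2.99% of genes (0.0765% and 1.46% with a higher level in cKO). DESeq2 called 3 of the 7, against 3.53% of genes (1.8% higher in cKO), and limma on replicates 1 and 2 alone called 3, against 1.85%. All 7 genes were higher in cKO in all 3 pairs, which held for 11.5% of genes tested. The genes tested include some at 0 in both replicate 3 libraries, which could not be higher in all 3 pairs. The median log2 fold change was 0.40 over the 7 genes and -0.04 over all genes tested.

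Gimap3 encodes a membrane-anchored protein closely related to that of Gimap5. It was at 867, 1004 and 1097 CPM in Ctrl and at 1398, 1524 and 1486 CPM in cKO, so the groups did not overlap. The groups stood apart with cKO higher for 3.89% of all genes tested (in either direction for 11%) and for 3 of the 7 Gimap genes beyond Gimap7. Genes at 0 in both replicate 3 libraries are counted in these shares but could not stand apart. The log2 fold change of Gimap3 was 0.58 (SE 0.104), with a limma adjusted p of 0.101 and of 0.00342 with the block. It also passed in DESeq2 (adjusted p = 0.000106) and with replicates 1 and 2 alone (limma adjusted p = 0.00611).

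Gimap6 encodes a protein that binds the autophagy protein GABARAPL2. It was at 753, 822 and 949.8 CPM in Ctrl and at 1048, 1279 and 1289 CPM in cKO, again without overlap. The log2 fold change was 0.52 (SE 0.125), with a limma adjusted p of 0.267, and of 0.00513 with the block. Gimap4, whose product has been linked to T cell death, was the most abundant of the 8 by CPM. It was at 1248, 1507 and 1802 CPM in Ctrl and at 1806, 2166 and 2111 CPM in cKO, where the highest Ctrl and the lowest cKO library almost met. The log2 fold change was 0.43 (SE 0.149), with a limma adjusted p of 0.634, and of 0.0230 with the block.

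Gimap8, whose protein carries several GTPase domains, was at 198.6, 206 and 178 CPM in Ctrl and at 284, 292.5 and 203 CPM in cKO. In replicates 1 and 2 both cKO libraries lay above both Ctrl libraries, but cKO replicate 3 fell within the Ctrl range. The log2 fold change was 0.40 (SE 0.155, limma adjusted p = 0.736, 0.0633 with the block). With replicates 1 and 2 alone it was 0.51 (limma adjusted p = 0.0108). Gimap5 was at 184.6, 214.5 and 262 CPM in Ctrl and at 249.6, 276 and 313 CPM in cKO, with overlapping groups. Its log2 fold change was 0.35 (SE 0.150, limma adjusted p = 0.849, 0.0565 with the block).

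Gimap9 and Gimap1 differed least. Gimap9 was at 149, 162 and 181 CPM in Ctrl and at 162, 190.3 and 212.5 CPM in cKO. Gimap1 was at 419, 522 and 561 CPM in Ctrl and at 506, 550.2 and 584 CPM in cKO. In both the groups overlapped, and without the block the log2 fold changes of 0.19 (SE 0.127) and 0.13 (SE 0.127) were within about 1 to 2 standard errors of 0. With the block the standard errors were 0.0785 and 0.0759, with limma adjusted p-values of 0.360 and 0.553.

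**Figure D2:**
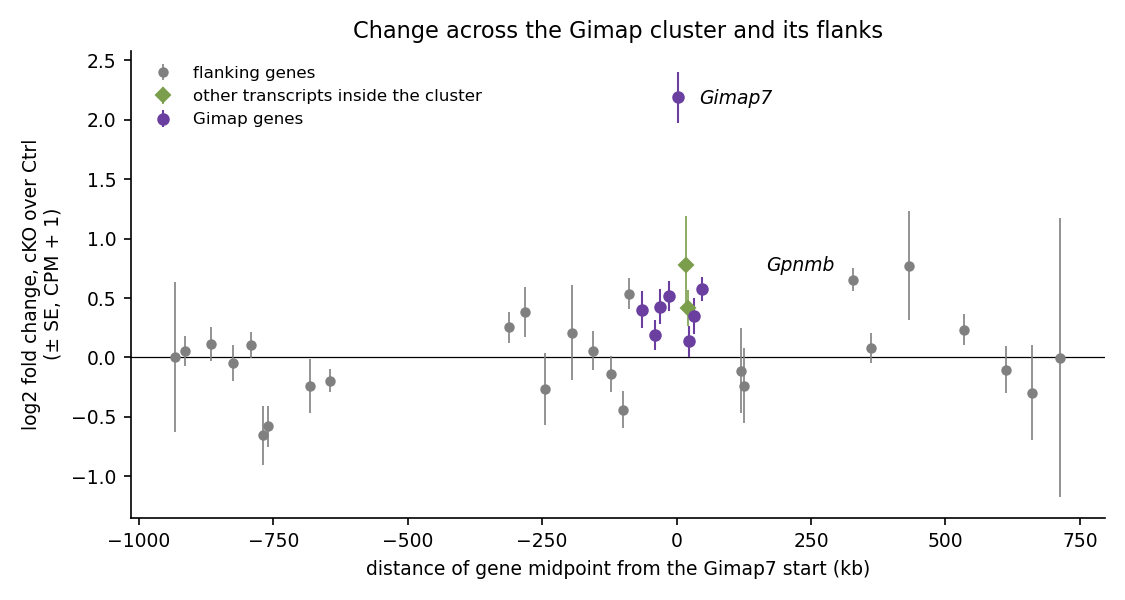
Log2 fold change (cKO over Ctrl, with the standard error of the limma fit as bars) of each Gimap gene and each tested flanking gene against the distance of its midpoint from the start of Gimap7 in kb, with the read-through and antisense genes inside the cluster as green diamonds. Gimap7 stands at 2.19, the other 7 Gimap genes lie between 0.13 and 0.58, and the 26 flanking genes spread between -0.66 and 0.77.

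The size of the difference varied between the pairs for the 7 genes. The median log2 difference over all 8 genes was 0.50 in pair 1, 0.51 in pair 2 and 0.24 in pair 3, and 6 of the 7 genes differed less in pair 3 than in pair 1. The exception was Gimap9, with 0.12 in pair 1 and 0.23 in pair 3. The single differences of the 7 genes ran from 0.06 for Gimap1 in pair 3 to 0.69 for Gimap3 in pair 1. Replicate 3 was the highest Ctrl library for 7 of the 8 genes, all but Gimap8, and the highest cKO library for 5. The part that the many zero values of these 2 libraries have in these differences was not tested.

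**Figure D3:**
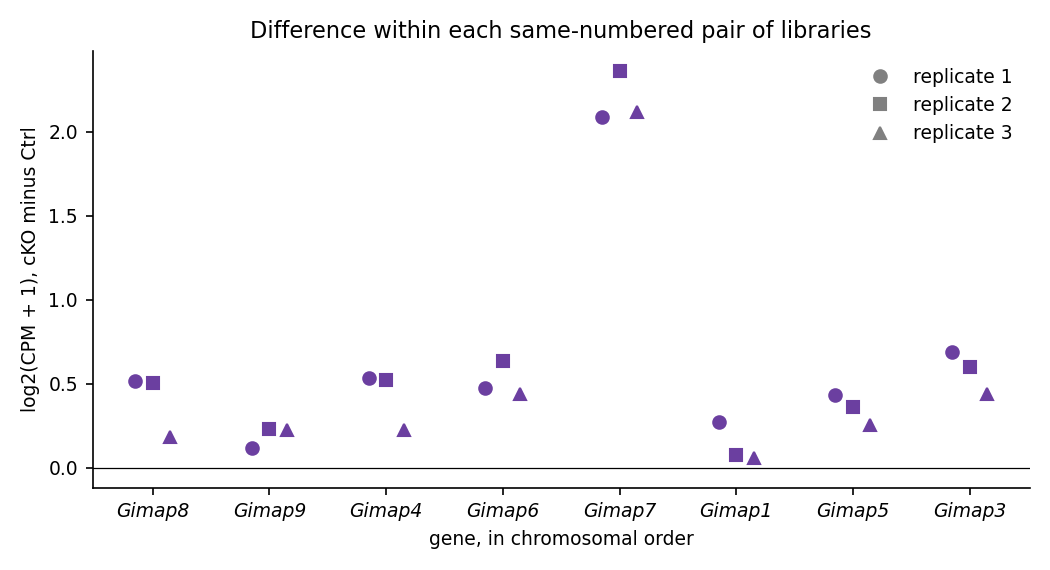
Log2 difference of cKO minus Ctrl between same-numbered libraries for each Gimap gene, with 1 point per pair (its shape gives the replicate number) and the genes in chromosomal order. All points lie above 0; those of Gimap7 are between 2.09 and 2.36, and those of the other 7 genes between 0.06 and 0.69, with pair 3 often the lowest.

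Together the 8 genes took 3853, 4475 and 5082 CPM in Ctrl and 5598, 6469 and 6423 CPM in cKO, and the groups did not overlap. This is 0.447% ± 0.0614 of the library in Ctrl and 0.616% ± 0.0490 in cKO (SD, n = 3). Gimap7 itself held 0.889% ± 0.0938 of all Gimap reads in Ctrl and 3.00% ± 0.457 in cKO. Without Gimap7 the sum was 4430 ± 606 CPM in Ctrl and 5977 ± 454 in cKO, a ratio of 1.35. Most of the added Gimap RNA thus came from the abundant genes: of a gain of 1693 CPM, Gimap4 gave 509, Gimap3 479.8, Gimap6 364 and Gimap7 146. Relative to the median log2 level of the other 7 genes in the same library, Gimap7 stood at -3.63, -3.80 and -3.45 in Ctrl and at -1.81, -1.51 and -1.39 in cKO. Gimap7 thus moved closer to the other members in every cKO library.

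Levels were compared between genes per kb of exon of the protein-coding transcripts. In Ctrl the order of the means was Gimap3 (1092 ± 128 CPM per kb), Gimap4 (827 ± 151), Gimap1 (293 ± 43.0), Gimap6 (264 ± 31.2), Gimap5 (113 ± 19.9), Gimap9 (100.05 ± 9.77), Gimap8 (52.5 ± 3.91) and Gimap7 (29.5 ± 6.84; SD, n = 3). The neighbours Gimap3 and Gimap4, Gimap1 and Gimap6, and Gimap5 and Gimap9 overlapped in their Ctrl libraries, whereas the other neighbours did not. Gimap7 was the lowest of the 8 in each Ctrl library. In cKO it reached 137 ± 29.6 CPM per kb and ranked 6, 5 and 5 in the 3 libraries, at a level that overlapped those of Gimap5 (143 ± 16.3) and Gimap9 (115 ± 15.3).

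The order depends on which exons are counted. With the exons of all annotated transcripts Gimap4 came before Gimap3, and only 2 of 8 ranks stayed. With the authors' deposited length column, 6 of 8 stayed, Gimap9 coming before Gimap5. In Ctrl Gimap7 was last and Gimap8 seventh under each. In cKO Gimap7 ranked 6 by its mean with the coding and with all exons and 5 with the deposited lengths. Its gain between the groups was 108, 62.9 and 115 CPM per kb under the 3 lengths, against 114, 104 and 63.4 for Gimap6, so these gains cannot be ranked.

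**Figure D4:**
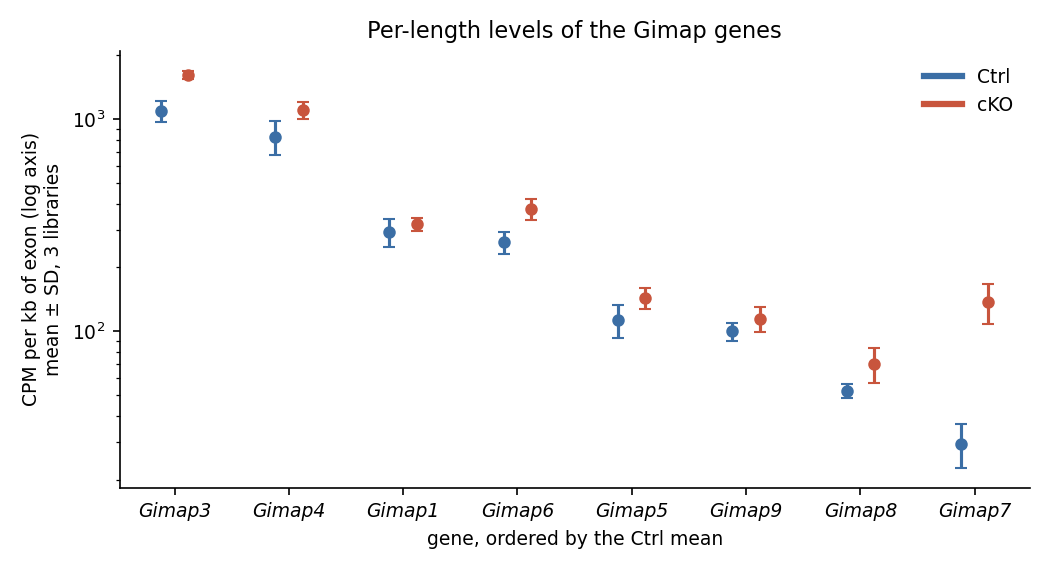
Level per kb of exon (CPM per kb, log axis) of each Gimap gene, ordered by the Ctrl mean, with points for the means of Ctrl (blue) and cKO (red) and bars for the SD over 3 libraries. Gimap7 is lowest in Ctrl at 29.5 CPM per kb and lies among Gimap5 and Gimap9 in cKO at 137 CPM per kb.

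Some reads of the cluster cannot be given to 1 gene with certainty. A read-through gene on the plus strand, Gm28053, spans 48718607 to 48752600 and shares 81 exon bases with Gimap7, 198 with Gimap1 and 153 with Gimap5. It was at 0.476, 0.910 and 1.28 CPM in Ctrl and at 1.94, 2.52 and 2.14 CPM in cKO, without overlap, at 16 to 146 reads a library. This is a small level beside that of Gimap7, and its log2 fold change was 0.78 (SE 0.409 without the block). With the block the SE was 0.177 (limma adjusted p = 0.0648), and Gm28053 passed limma's test in neither fit. The antisense gene Gimap1os (Gm3345 in the table) shares 1107 bases, or 36.0%, of the exons of Gimap1, and strand-specific counting is not given in the sources used here. It was at 66.8, 70.4 and 84.4 CPM in Ctrl and at 80.9, 110.1 and 106.9 CPM in cKO, with a log2 fold change of 0.42 (SE 0.152, limma adjusted p = 0.678, 0.0862 with the block). Of all stretches of 75 bases, the read length, 33.2% in Gimap1, 3.86% in Gimap5, 3.32% in Gimap3 and 0.310% in Gimap7 occur in another gene too. None do in Gimap4, Gimap6, Gimap8 and Gimap9. The value of Gimap1 is the least certain on this count.

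The genes on either side of the cluster had no common direction. Within 1 Mb, 26 genes were tested, 13 had a positive log2 fold change, and their median was 0.0026. Over all genes tested 6426 of 15691 were positive, the median was -0.04 and 0.663% passed limma's test. At an unadjusted limma p under 0.05 there were 5 of the 26, 2 of them higher in cKO, against 6.02% and 2.33% of genes tested. The groups stood apart in 3 with cKO higher and in 4 with cKO lower, against 3.89% with cKO higher and 11% in either direction over all genes. Within 250 kb none of the 10 tested (Krba1, Zfp467, Sspo, Gm7887, Lrrc61, Repin1, Zfp775, AI854703, Tmem176b and Tmem176a) passed limma's test with or without the block. The nearest of them, AI854703, 13.5 kb before Gimap8, was at 12.1 ± 0.264 CPM in Ctrl and 18.05 ± 1.09 in cKO (a log2 difference of 0.54, limma adjusted p = 0.259), and the groups did not overlap. It passed in DESeq2 (adjusted p = 8.65e-05), the only one of the 10 that did, and not in edgeR with or without the block (0.0840 and 0.321). Zfp775, 24.0 kb away, was at 16.4 ± 1.96 and 11.8 ± 1.11 CPM (a log2 difference of -0.44, limma adjusted p = 0.645), and also did not overlap. On the other side Tmem176b and Tmem176a had log2 fold changes of -0.11 and -0.24, within 1 standard error of 0 (SE 0.356 and 0.316). One gene within 1 Mb passed, Gpnmb, a glycoprotein gene 270 kb past Gimap3, which was chosen for mention after its values were seen. It was at 78.8 ± 1.98 CPM in Ctrl and 125 ± 12.3 in cKO (log2 fold change 0.66, SE 0.0961, limma adjusted p = 0.0453). Gpnmb passed in 8 of 12 alternative fits other than those that leave out a library. Among them were limma with the block (adjusted p = 0.00798) and DESeq2 (adjusted p = 1.63e-06), but not edgeR without the block (adjusted p = 0.141). It did not pass in limma when any single library other than cKO replicate 3 was left out (adjusted p up to 0.233).

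Genes whose products are reported to bind GIMAP proteins or to act in the same survival and autophagy steps showed no call. Of 11 tested, 0 passed limma's test with or without the block (2.87% and 0.663% of all genes) and 1 did at an unadjusted p under 0.05 (6.02%). Bcl2, which protects lymphocytes from death, was at 405 ± 60.7 CPM in Ctrl and 366 ± 31.3 in cKO, and Gabarapl2, the partner of Gimap6, at 124 ± 8.36 and 139 ± 32.2. Bcl2l1, the gene of the survival protein BCL-XL, was at 68.8 and 89.4 CPM on average and passed in edgeR with the block alone (adjusted p = 0.0393; limma 0.0852 with the block).

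Of 14 genes of lymphocyte quiescence and recirculation, 1 rose and none fell by limma's test, and 11 had a positive log2 fold change (median 0.20). Over all genes tested 0.663% passed, 0.204% with a higher level in cKO, and 6426 of 15691 had a positive log2 fold change (median -0.04). Fits that each leave out a library called 0 to 1 of the 14. With the block 4 rose and 1 fell, among them the transcription factor genes Klf3 (157 ± 36.8 to 256 ± 71.2 CPM, limma adjusted p = 0.00235) and Tcf7 (272 ± 35.3 to 376 ± 12.1 CPM, adjusted p = 0.0239) and Slfn2, a Schlafen family gene that keeps T cells quiescent (589.99 ± 91.4 to 757 ± 141 CPM, adjusted p = 0.0373). The one that fell was Btg1, an antiproliferative gene, from 798 ± 68.3 to 596 ± 84.7 CPM (limma adjusted p = 0.0143 with the block). Over all genes tested 2.87% passed with the block, and 1.24% passed with a higher level in cKO.

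Genes of other families of immune GTPases, those induced by interferon, were set beside the cluster as 1 list. Of 18 tested, 16 had a positive log2 fold change, with a median of 0.31, and limma called 0 higher and 1 lower. Over all genes tested 6426 of 15691 were positive, the median was -0.04 and 0.663% passed. Gbp3, a guanylate-binding protein gene, fell from 226 ± 11.8 to 65.2 ± 7.24 CPM (log2 fold change -1.78, SE 0.106, adjusted p = 0.00215) and passed in all 6 fits without 1 library. With the block 4 rose, Igtp (265 ± 48.4 to 406 ± 58.4 CPM, limma adjusted p = 0.00249), Gbp6, Gbp5 and Iigp1. Of all genes tested 1.24% passed with the block at a higher level in cKO. The median of the 7 Gimap genes beyond Gimap7 was 0.40, and the difference between the 2 lists was not tested.

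The genes whose profile over the 6 libraries lay nearest to that of Gimap7 were not Gimap genes. Likeness was the root mean square difference between log2 profiles centred on their own mean, over the 10140 genes averaging 5 CPM or more. It is not scaled, so it depends largely on the size of the step between the groups. With log2 fold changes of 0.13 to 0.58 against 2.19, the other Gimap genes were bound to lie far from Gimap7, whatever the shape of their profiles. Itgb3, the integrin beta chain that pairs with the alpha v chain, was nearest, at a distance of 0.126, with 40.5, 49.7 and 62.2 CPM in Ctrl and 171, 230.5 and 339.6 in cKO. Also among the 5 nearest were Il2ra, the alpha chain of the IL-2 receptor (0.279), Asb2, an adaptor gene of a ubiquitin ligase (0.307), and Art2b, an ADP-ribosyltransferase gene (0.349). Of the other Gimap genes Gimap3 came first, at 0.828 and rank 105, and Gimap1 last, at 1.04 and rank 1023. These distances were found by searching for likeness to Gimap7, and are a description without a test.

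**Figure D5:**
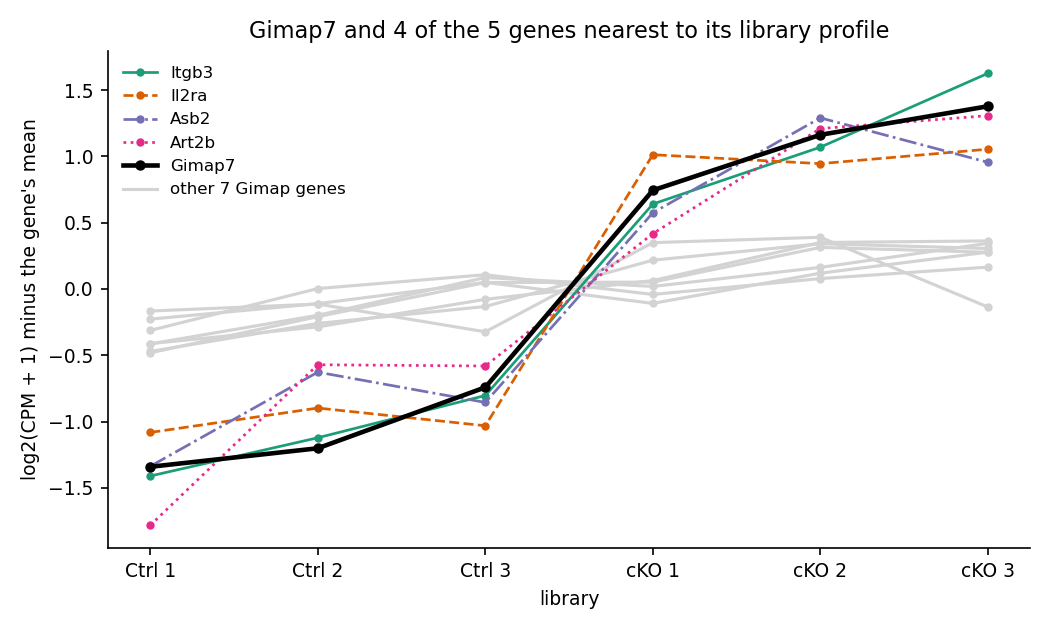
Log2 profile of Gimap7 over the 6 libraries, each gene centred on its own mean, with those of 4 of the 5 genes nearest to it and of the other 7 Gimap genes. These 4 genes follow the step of Gimap7 between Ctrl and cKO, and the other Gimap genes take a smaller step in the same direction.

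Markers of other cells that the thymus could add were mostly low, apart from Ighm, Lef1 and Cst3, and some moved with the groups. The summed level of 4 double-positive thymocyte markers was 4.87 to 8.98 CPM in Ctrl and 9.19 to 13.4 in cKO, without overlap, with Rag1 at 0.852 ± 0.497 and 1.91 ± 0.862 CPM. The sum of 4 markers of mature CD4 or CD8 T cells was 179.8 to 202.8 CPM in Ctrl and 204 to 237 in cKO, nearly all of it Lef1, with Cd8a at 1.32 ± 0.958 and 2.98 ± 0.814 CPM. These sums barely stood apart, and the groups overlapped for each of the 4 markers taken alone. Ccr7 was at 7.95 CPM in cKO replicate 3, against 1.32 and 0.69 CPM in cKO replicates 1 and 2. The sums of the other lists overlapped between the groups: 4 B cell markers at 352 to 388 and 362 to 457 CPM, mostly Ighm, 4 myeloid markers at 96.4 to 104 and 79.0 to 115.5 CPM, mostly Cst3, and 4 natural killer cell markers at 19.6 to 54.5 and 12.6 to 46.3 CPM. Endothelial markers (4), the epithelial marker Epcam and the erythroid marker Alas2 reached at most 22.1, 9.97 and 4.13 CPM. In the replicate 3 libraries the endothelial sum was only 0.0755 CPM in Ctrl and 0 in cKO. Alas2 (0.0755 and 0.132 CPM) and the B cell marker Ms4a1 (0.0378 and 0.191 CPM) were also lowest there, and Epcam was highest there. The part of this in the smaller differences of pair 3 was not tested. Of the B cell markers, Cd79a (2.496 ± 0.399 and 1.72 ± 0.265 CPM) and Cd79b (1.58 ± 0.219 and 0.831 ± 0.463 CPM) were lower in every cKO library than in every Ctrl library. This held for 1114 of the 15691 genes tested. Ms4a1 and Ighm, the other B cell markers tested, had positive log2 fold changes of 0.23 and 0.09, and their groups overlapped. No marker of these lists passed limma's test with or without the block. T cells also express Gimap genes, and the part of these cells in the differences was not tested.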

How the data were processed

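Bulk RNA-seq was measured in 3 Ctrl and 3 cKO libraries. A Qiagen kit gave the total RNA and a NuGEN Ovation Ultralow kit the libraries, which a NextSeq500 read, per the labels' protocols. Per the submitters' processing notes, Trimmomatic 0.33, STAR 2.5.2, HTSeq 0.6.1, edgeR and the mm10 build were used, in roles that are not stated. The authors deposited 1 table with CPM per library, and also their own log2 fold change, likelihood ratio score, p-value and adjusted p-value. Its WT and KO columns were taken as Ctrl and cKO. All CPM values were whole multiples of 1 read within 0.01 reads, so the total reads per library were recovered and the count tests were run on whole reads.

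CPM were tested as log2(CPM + 1) with limma 3.58.1 (trend, robust; R 4.3.3) over the 15691 genes averaging 1 CPM or more, with Benjamini-Hochberg adjustment over all of them and a threshold of 0.05. Alternatives were edgeR 4.0.16 quasi-likelihood, limma-voom, DESeq2 1.42.0, other scalings, pseudocounts and filters, replicates 1 and 2 alone and each library left out. The model fits, other than those that leave out a library, were tested on simulated data. The labels do not say what a replicate number marks. Deviations from the group mean of same-numbered libraries correlated at r = 0.855, 0.687 and 0.924 across 15691 genes, which are not independent replicates. These correlations cannot establish a pairing, since both replicate 3 libraries stood apart from the others. That the numbers pair the libraries was taken as an assumption, and fits with the replicate block are given beside the others. Ctrl replicate 2 correlated somewhat more with cKO replicate 1 (0.718) than with its own number.

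Gene positions come from the table; exons, reading frames and transcripts come from GENCODE M21, and promoters from RefSeq (GRCm38.p6), where all 8 genes were found. The level per kb uses exons of protein-coding transcripts within the span of the table, since its length column sums transcripts. Genes named are all 8 members, Tgfbr2, tested flanking genes within 250 kb, the 5 nearest profiles and up to 3 called genes of each list; 2 genes that this rule names are not reported here. The members and lists were chosen with earlier results of these data known.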

Additional observations from a re-analysis of the deposited data

How the results depend on the processing

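All 8 Gimap genes were higher in cKO in all 19 fits, and the log2 fold change of Gimap7 ran from 2.05 to 2.37. Of the other 7, the number called went from 0 to 3 with the replicate block, 5 in edgeR with the replicate block, 3 in DESeq2 and 3 with replicates 1 and 2 only; it was 0 in edgeR without the block, in limma-voom and in each fit without 1 library. Which genes were called differed: DESeq2 and replicates 1 and 2 gave Gimap3, Gimap6 and Gimap8. Of the flanking genes 1 was called, but 0 in edgeR, limma-voom, under TMM scaling, DESeq2-type size factors and a threshold of 0.01, 2 in edgeR with the block, 3 in DESeq2, and 0 to 1 without 1 library; their median of 0.0026 ran from -0.0365 to 0.0541 without 1 library. Of the GIMAP partners 1 was called in edgeR with the block. Of the quiescence genes 1 was called, but 5 with the block, 0 in edgeR, 4 in edgeR with the block, 0 in limma-voom, 4 in DESeq2, 4 with replicates 1 and 2 only, 0 at a threshold of 0.01 and 0 to 1 without 1 library. Of the interferon-inducible GTPases 1 was called, but 5 with the block, 5 in edgeR with the block, 6 in DESeq2 and 6 with replicates 1 and 2 only. With other exon lengths, 2 and 6 of 8 ranks of the level per kb stayed, a choice made after seeing the data. Over all genes 104 were called, 451 with the block, 41 in edgeR, 469 in edgeR with the block, 61 in limma-voom, 554 in DESeq2, 291 with replicates 1 and 2 only and 14 to 85 without 1 library. The causes were not tested. The 8 genes have at least 1111 reads in each library, so counting error is small beside the spread between libraries.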
